A study of Rattus norvegicus with 3 samples.

Results

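Maturation ameloblasts were compared with cervical loop cells in the enamel organ of Wistar Hannover rats. Both populations were dissected from the same series of 5 rats, and the cervical loop library of 1 rat was left out because its RNA integrity number lay below 7. No treatment, transgene or knockout is named in the labels for either group, and the age of the rats is not given in the sources used here. All 16516 genes of the deposited comparison and all 9949 transcripts of the deposited table of transcript make-up, which cover 4050 genes, entered the comparison. It uses 2 of the 3 deposited samples, since the secretory stage was not used here. Each sample is 1 mean per gene and stage. No replicate spread can therefore stand beside a value, and replicate error enters only through the authors' p-values and the false discovery rate (FDR) that rests on them.

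The rodent incisor grows throughout life. Epithelial stem and transit-amplifying cells in the cervical loop divide, leave the cell cycle, pass through a secretory stage in which they lay down the protein matrix of enamel, and end as maturation ameloblasts. Maturation ameloblasts pump calcium, phosphate and bicarbonate toward the enamel, cleave the matrix and take up its fragments by endocytosis, and in the rat they load the outer enamel with iron. The comparison therefore sets a sample from the start of this lineage against a sample from its end. Both are bulk samples. The cervical loop sample also held transcripts of the enamel matrix gene Ambn (mean 1306) and of the odontoblast gene Dspp (mean 81.7).

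Stage levels are the authors' least-squares means, whose unit is not stated, so levels are compared between stages for 1 gene and never between genes. A gene is called at an FDR of at most 0.05, and its direction is that of the ratio of both means. The FDR of genes was computed again by the step-up method from the p-values of the authors' deposited table. Where a gene's FDR or call is credited to that table below, the p-values are its source. A mean of 0.1 or less is treated as a floor, against which no fold is given. In the authors' deposited table, 9554 of 16516 genes, or 57.8%, were called. Of these, 3987 genes (24.1% of those tested) were higher and 5567 (33.7%) lower in maturation. These 2 shares are the background against which every count of a gene list below is read. The median log2 ratio of all genes was -0.12, the upper quartiles of the means were 22.8 in cervical loop cells and 22.6 in maturation, and 422 called genes stood at the floor in 1 stage. Genes with near-identical copies are uncertain: Hspa8, a chaperone, is listed at 0.079 in cervical loop cells and 0.206 in maturation ameloblasts, although every cell uses it.

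The 5 genes that mark the ends of the lineage separated the stages. Slc24a4, a potassium-dependent sodium and calcium exchanger of the ameloblast's enamel-facing membrane, stood at 1.5 in cervical loop cells and 684 in maturation ameloblasts, a 455-fold difference (FDR = 0.00125, authors' deposited table). Slc34a2, a sodium-dependent phosphate carrier, stood at 0.521 in cervical loop cells and 248 in maturation ameloblasts, 476-fold apart (FDR = 0.000119, authors' deposited table). Odam, a secreted protein of the layer that joins maturation ameloblasts to enamel, was 108-fold higher in maturation, with means of 29.3 and 3159 (FDR = 0.00141, authors' deposited table). On the other side, Shh, the hedgehog ligand made by the cervical loop epithelium, had a mean of 152 there and 0.144 in maturation (FDR = 0.000178, authors' deposited table). Its maturation mean lies just above the floor, so the 1056-fold ratio is imprecise: the log2 ratio was -10.04 as deposited and -7.06 after 1 was added to each mean. Mki67, a protein of dividing cells, fell from 289 to 35.3, 8.19-fold lower (FDR = 0.000101, authors' deposited table). The 5 markers were chosen for these stages, so the sides on which they lie are no independent result.

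**Figure D1:**
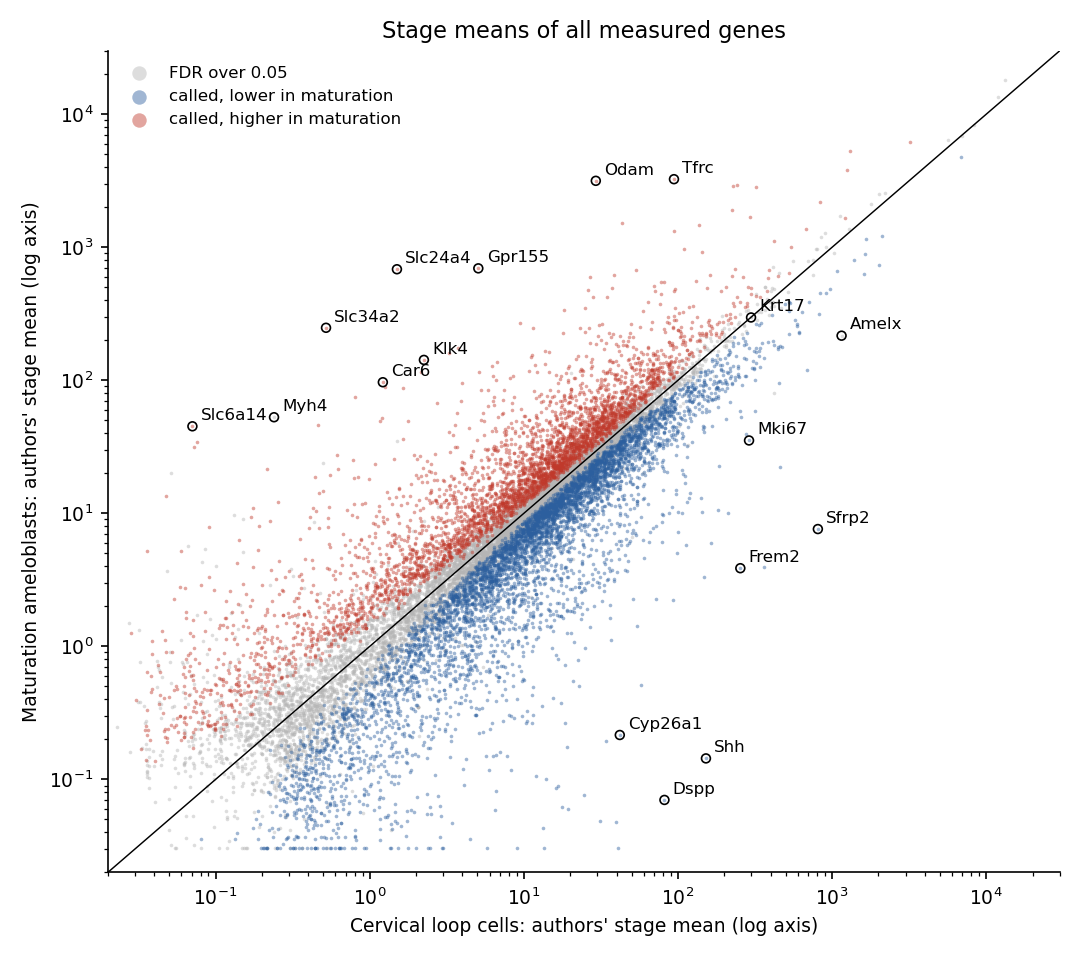
Authors' stage mean of each measured gene in cervical loop cells (horizontal, log axis) and in maturation ameloblasts (vertical, log axis). Each point is 1 gene, red or blue where called at an FDR of at most 0.05 and grey otherwise, and the line marks equal means. Slc24a4, Slc34a2 and Odam lie far above the line and Shh far below it. Krt17 lies on the line at 298 and 297, and Amelx (1152 and 217) and Myh4 (0.24 and 52.8) are far from it without being called.

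Among called genes above the floor in both stages, 136 were at least 10-fold higher and 188 at least 10-fold lower in maturation. The 12 highest ratios included Slc24a4, Slc34a2 and Odam, described above. The calcium-activated potassium channel Kcnn4 stood at 1.25 in cervical loop cells and 89.6 in maturation ameloblasts, 71.5-fold higher. Clca2 and Clca5, of a family first described as regulators of calcium-activated chloride channels, were 99.96-fold higher (0.462 and 46.2) and 53.9-fold higher (2.14 and 115). The secreted carbonic anhydrase Car6 was 79.5-fold higher, and Klk4, the protease that degrades enamel matrix, was 63.3-fold higher. Gpr155, an integral membrane protein, went from 5.07 to 694, a 137-fold difference. The remaining members of the 12 were Rims3, a protein known from synaptic release sites (62.4-fold higher), the unnamed locus LOC100359907 (93-fold higher) and Tnni1, a troponin of slow muscle fibres (101-fold higher). The cervical loop means of Rims3 (0.174) and Tnni1 (0.214) lie near the floor, so their ratios are imprecise. The amino acid carrier Slc6a14 and the milk protein gene Csn3 were at the floor in the cervical loop, with means of 0.0708 and 0.0756, and reached 45.1 and 34.3 in maturation. In the authors' deposited table the FDR of these genes ran from 5.00e-05 for LOC100359907 to 0.00238 for Car6.

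Among the 12 lowest ratios, after Shh came Cyp26a1, an enzyme that degrades retinoic acid, at 41.9 in cervical loop cells and 0.216 in maturation ameloblasts. Its relative Cyp26c1 went from 39.5 to 0.0479, at the floor in maturation. The hedgehog target Hhip (174-fold lower) and the Wnt antagonists Dkk1 (139-fold lower) and Sfrp2 (106-fold lower) followed. Sfrp2 had means of 809 and 7.62. Fgf10, the growth factor that dental mesenchyme sends to the epithelium, was 109-fold lower. Frem2, an extracellular matrix protein of epithelial basement membranes, went from 254 to 3.87, and the surface protein Cd24 from 361 to 3.94. Sox11, a transcription factor of immature cells, was 46.3-fold lower, the thyroid hormone-binding protein Crym 70.2-fold lower and the cartilage matrix protein Ucma 113-fold lower. The maturation means of Dkk1 (0.1001), Ucma (0.107), Fgf10 (0.175) and Hhip (0.195) lie near the floor, so their ratios are imprecise. Dspp, the dentin sialophosphoprotein of odontoblasts, had a mean of 81.7 in the cervical loop and 0.0701 in maturation. Vwde, a secreted protein with a von Willebrand factor domain, went from 41 to 0.0303. The FDR of these genes in the authors' deposited table ran from 5.00e-05 for Vwde to 0.00309 for Dspp.

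**Figure D2:**
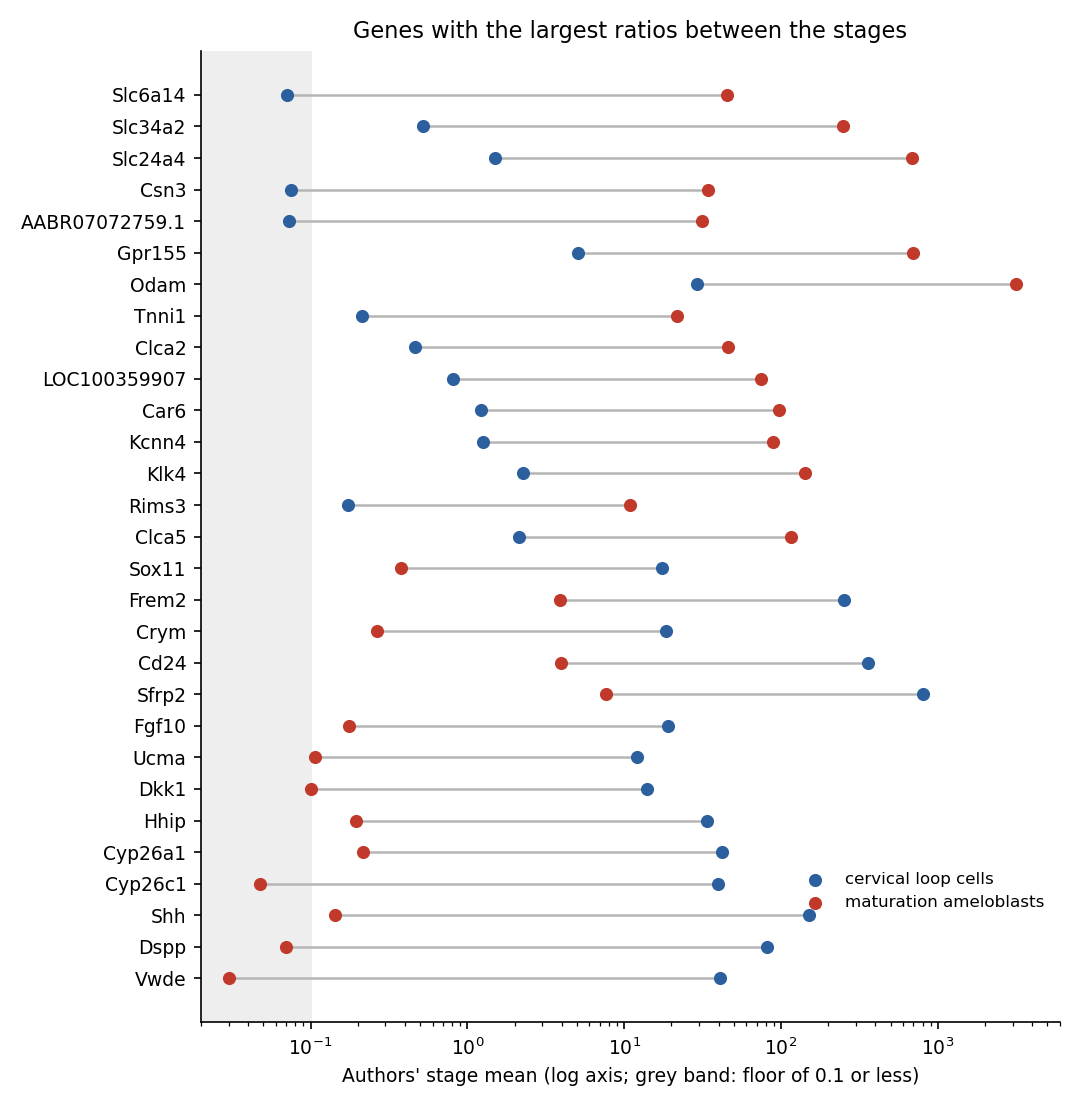
Authors' stage means (log axis) of the 12 genes with the highest ratios, 11 of the 12 with the lowest, and the 6 called genes at the floor in 1 stage, with blue points for cervical loop cells and red points for maturation ameloblasts. The grey band marks the floor of 0.1 or less. Ratios span from Vwde (41 and 0.0303) to Slc6a14 (0.0708 and 45.1).

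Markers of other cells were measured in both populations, and 10 lists describe how they differed. All 10 genes with a ratio of at least 10, a larger mean of at least 5 and no call were muscle genes. Of 17 measured skeletal muscle markers, 2 were higher, 1 was lower and 14 were not called, yet their summed mean was 7.69 in the cervical loop and 176 in maturation, and 5 were at the floor in the cervical loop. The myosin Myh4 had means of 0.24 and 52.8 at an FDR of 0.277 in the authors' deposited table, and myoglobin (Mb) 0.0511 and 20.3 at an FDR of 0.356. The called members were Tnni1 and Ryr1, higher, and Tnnc1, lower. Markers of myeloid cells were called higher for 11 of 18, or 5 at an FDR of 0.01 (summed mean 347 and 883) and those of endothelium for 11 of 16, or 7 at an FDR of 0.01 (259 and 494), with none lower in either list. Mesenchyme markers summed to 11209 and 15924, with 6 of 17 higher, 1, Twist2, lower and 10 not called. Large parts of that sum came from collagens. Col1a1 (5618 and 6385) and Col1a2 (2018 and 2534) were not called, and Col3a1 (1246 and 3826) was higher. Odontoblast and bone markers summed to 2183 and 1592, with 5 of 16 lower, none higher, and Dspp and Sost at the floor in maturation.

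Lymphoid markers summed to 17.1 and 27.3 (2 of 8 higher), red cell markers to 1294 and 1828 (2 of 6 higher), and smooth muscle and pericyte markers to 359 and 291 (5 of 11 higher and 4 lower). Nerve and Schwann cell markers summed to 114 and 96.2, with 4 of 11 higher and 3 lower. Markers of the stratum intermedium and papillary layer, the epithelial cells beside the ameloblasts, summed to 1744 and 4863, with 6 of 10 higher and 2 lower. In such bulk samples fewer cells of a type and less RNA per cell cannot be told apart.

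**Figure D3:**
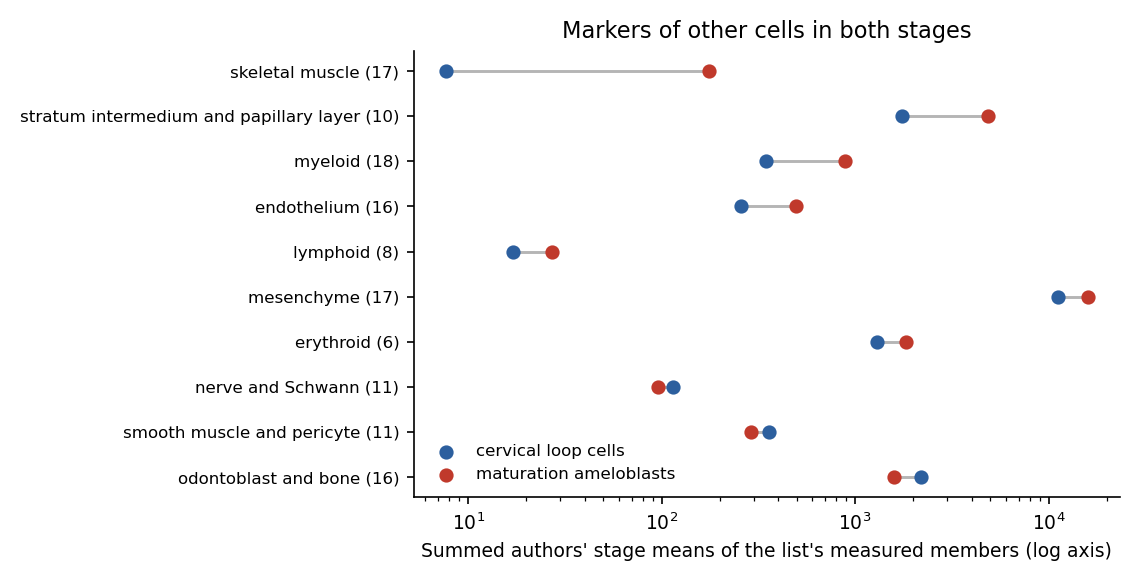
Summed authors' stage means (log axis) of the measured members of 10 marker lists, with blue points for cervical loop cells, red points for maturation ameloblasts and the number of members in brackets. Skeletal muscle markers differ most, 7.69 against 176, and odontoblast and bone markers are the lowest relative to the cervical loop.

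Genes of cell division were lower in maturation almost without exception. Of 103 measured members of the cell cycle list, 91 were lower, 6 higher and 6 not called, with a median log2 ratio of -2.29 against -0.12 over all genes. All 38 genes of mitosis and the kinetochore and 33 of 34 genes of DNA replication were lower, as were 19 of 23 cyclins, kinases and their transcription factors. Median log2 ratios were -2.98 for mitosis, -1.96 for replication and -1.44 for cyclins and kinases.

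Top2a, the topoisomerase that untangles replicated chromosomes, stood at 185 in cervical loop cells and 22.5 in maturation ameloblasts. Cenpf, a kinetochore protein, had the largest fall of the mitotic genes, 13.9-fold to a mean of 7.2, while Incenp, from 30.5 to 15.6, had the smallest. Cdk1, the kinase that starts mitosis, was 7.57-fold lower and its cyclin Ccnb1 10.2-fold lower. Cdc20, which acts in late mitosis, was 9.08-fold lower. Of replication genes, Mcm10 was 11.6-fold lower, the methylation maintenance factor Uhrf1 9.21-fold lower and the sliding clamp Pcna only 1.84-fold lower. Gins2, with means of 25.5 and 23.1, was the replication gene not called. The D cyclins differed among themselves: Ccnd1 was 5.89-fold lower, whereas Ccnd2 (29.6 and 26.8) and Ccnd3 (29.7 and 24.7) were not called. The FDR in the authors' deposited table was 0.000107 for Top2a, 7.56e-05 for Cdk1, 6.07e-05 for Mcm10 and 0.000169 for Ccnd1.

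Genes that hold the cell cycle were mostly on the other side, with 5 of 8 inhibitors higher and 1 lower. Cdkn2b, which blocks the cyclin D kinases, stood at 3.66 in cervical loop cells and 57.1 in maturation ameloblasts, 15.6-fold higher (FDR = 0.00151, authors' deposited table). Cdkn1a, the p21 inhibitor, went from 39.7 to 189 and Cdkn1c, the p57 inhibitor, from 18 to 26.2. Rb1, the retinoblastoma protein gene, which holds back E2F factors and was the only member listed with the cyclins to be higher, was 3.63-fold higher. Cdkn2c was the inhibitor that fell, from 10.01 to 2.97, and Cdkn1b, the p27 inhibitor, was not called at 29.6 and 32.8.

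Promoters were searched for short sequences, some of them known as docking sites of cell cycle repressors and activators. Any part of these sequences in the fall of the cell cycle genes was not tested. The RefSeq promoter table (build GRCr8) matched 11020 of 16516 genes by symbol, and the 250 bases before each start were searched on both strands for 12 motifs, chosen with these results known. TTTGAA, the cell cycle genes homology region, occurred in 16 of 34 matched mitotic promoters (47.1%), in 2 of 28 replication promoters (7.14%) and in 10.5% of all matched promoters. CCAAT, the site of the NF-Y factor, occurred in 70.6% of mitotic, 64.3% of replication and 34.9% of all promoters. Genes called lower held CCAAT in 36.7% of promoters and genes called higher in 33.1%. For TTTGAA these were 448 of 3718 and 261 of 2858 promoters. By list, CCAAT ran from 14.3% (phosphate and pyrophosphate, 1 of 7) to 75% (enamel matrix, 9 of 12). It occurred in 66.7% of antigen presentation promoters, although no gene of that list was lower. TTTGAA and CCAAT stood together in 15 of 34 mitotic promoters (44.1%) against 3.91% of all. All 19 genes of the whole cell cycle list with both were lower in maturation, as were 91 of its 103 members regardless of motif. GGCGGGAA, a site of E2F factors, was found in 10.7% of replication and 2.94% of mitotic promoters and in 3.01% of all. A match describes the letters of this window and not the binding of a factor.

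The following promoter stretches end at the base before the start and read 5′ to 3′ in the direction of the gene, with TTTGAA and CCAAT, on either strand, in capitals. They belong to Cdk1 (chr20:19265071-19265292 on the plus strand), Cdc20 (chr5:137255800-137255897 on the minus strand), Mki67 (chr1:199952594-199952794 on the minus strand) and Top2a (chr10:84473094-84473343 on the minus strand), all in GRCr8. In Cdc20 the motif TTTGAA begins 51 bases before the start with a CCAAT box on either side. In Mki67 the second TTTGAA, which begins 99 bases before the start, shares 1 base with an inverted CCAAT box, and the pair stands as 1 run of capitals.
Cdk1: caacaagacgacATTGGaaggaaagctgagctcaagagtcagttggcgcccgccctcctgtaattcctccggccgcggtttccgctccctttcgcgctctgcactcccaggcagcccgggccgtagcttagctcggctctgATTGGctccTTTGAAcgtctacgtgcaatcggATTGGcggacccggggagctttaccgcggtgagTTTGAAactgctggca
Cdc20: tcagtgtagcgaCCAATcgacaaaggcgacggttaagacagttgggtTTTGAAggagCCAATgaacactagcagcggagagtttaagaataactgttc
Mki67: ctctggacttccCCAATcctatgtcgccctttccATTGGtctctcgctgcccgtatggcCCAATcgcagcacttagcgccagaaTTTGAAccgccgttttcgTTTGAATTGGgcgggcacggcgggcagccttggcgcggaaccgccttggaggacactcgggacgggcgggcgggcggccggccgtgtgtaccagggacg
Top2a: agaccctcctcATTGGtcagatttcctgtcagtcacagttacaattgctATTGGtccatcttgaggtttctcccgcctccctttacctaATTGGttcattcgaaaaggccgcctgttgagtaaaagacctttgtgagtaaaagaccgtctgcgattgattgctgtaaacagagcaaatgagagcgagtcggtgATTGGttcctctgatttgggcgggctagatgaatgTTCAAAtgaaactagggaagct

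Of 121 measured progenitor and signalling genes, 54 were lower (44.6%, against 33.7% of all genes), 31 higher (25.6%, against 24.1%) and 36 not called, with a median log2 ratio of -0.41. Of 12 measured members of the hedgehog pathway, 8 were lower and 1 higher, with a median of -1.44.

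Besides the ligand Shh, its receptors and targets were low in maturation. Ptch1, the receptor whose own gene is switched on by the pathway, stood at 462 in cervical loop cells and 22.3 in maturation ameloblasts, 20.8-fold lower (FDR = 4.91e-05, authors' deposited table). Gli1, the transcription factor and target of the pathway, went from 72.5 to 2.27 (31.9-fold lower at an FDR of 8.32e-05 in the authors' deposited table). Smo, the signal-transducing membrane protein, was only 2.33-fold lower, Gli3 3.14-fold lower and the inhibitor Sufu 1.6-fold lower. Gli2 (19.6 and 18.2) and the co-receptors Boc (14 and 17.4) and Cdon (19.9 and 20.5) were not called, and the co-receptor Gas1 was 1.82-fold higher. The target genes Ptch1, Hhip and Gli1 thus had larger ratios than the transducers Smo, Gli2, Gli3 and Sufu. The Ptch1 promoter window holds the GLI binding motif GACCACCCA, here on the opposite strand and in capitals. It occurs in 0.272% of all matched promoters and in 0.215% of those of genes called lower. Of 8 matched promoters of the hedgehog list, only 1, that of Ptch1, holds it. The motif lies 172 to 164 bases before the start, and the stretch shown, chr17:1555359-1555447 on the plus strand in GRCr8, is the sequence around it and ends upstream of the start.
Ptch1: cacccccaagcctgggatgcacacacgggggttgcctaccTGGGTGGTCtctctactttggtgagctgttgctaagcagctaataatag

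Of 31 measured Wnt genes, 15 were lower (48.4%, against 33.7% of all genes) and 6 higher (19.4%, against 24.1%). Among the lower were the ligand Wnt3a (from 7.81 to 0.149), the agonist Rspo2 (from 6.35 to 0.149), the extracellular inhibitor Notum (from 10.4 to 0.265) and the pathway targets Tcf7 (9.0-fold lower) and Axin2 (3.34-fold lower). The 6 that were higher were the ligands Wnt10b (from 0.842 to 18.8), Wnt7b (from 3.35 to 19), Wnt5a (from 31.5 to 101) and Wnt4 (from 23.1 to 60.8) and the antagonists Dkk2 (from 12.5 to 76) and Dkk3 (from 27.5 to 51.9). Dkk1 and Dkk2, 2 antagonists of one family, therefore lay on opposite sides. Of 20 FGF genes, 12 were lower and 4 higher. The ligands Fgf9 (from 7.63 to 0.393), Fgf10 and Fgf3, which was at the floor in maturation with 0.0368 against 2.88, were lower together with the response genes Etv4 (17.7-fold lower), Etv5 (6.98-fold lower) and Spry2 (3.9-fold lower). The receptor Fgfr2 was 1.52-fold lower, while Fgfr1 (1.35-fold higher) and Fgfr3 (1.41-fold higher) were higher. Fgf3, Fgf10, Sfrp2 and Twist2 are known from dental mesenchyme. The sums of the mesenchyme and odontoblast lists differed by the amounts given above, and most members of either list were not called. The part of mesenchymal cells in these ratios was not tested.

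BMP and TGF-beta genes were higher for 10 of 23 and lower for 7. The activin subunits Inhba (from 11.6 to 83.7) and Inhbb (from 1.93 to 27.4), Tgfb1 (from 32.9 to 173) and Bmp3 (from 21.6 to 103) were higher, and Bmp2 (from 16.7 to 5.45), Tgfb3 (from 25.7 to 11.3) and the BMP antagonist Grem1 (from 32 to 11.1) lower. Within that family, Tgfb1 and the other two TGF-beta ligands lay on opposite sides. Of 15 genes used as stem or progenitor markers, 4 were lower and 6 higher. Sox2, a marker of incisor stem cells, went from 3.33 to 0.148, Lgr5 from 0.427 to 0.102 and the Wnt-binding Sfrp5 from 15.3 to 0.968. The related receptor Lgr6 rose from 7.49 to 38.9, and the epithelial factors Tp63 (2.52-fold higher) and Isl1 (3.39-fold higher) were also higher. Bmi1, Lrig1, Yap1 and the other 2 members were not called. Of 12 Notch genes, 5 were lower and 3 higher, with Notch1 at 81.5 and 54.2. Of 8 ectodysplasin genes 3 were lower, among them the receptor Edar (from 3.89 to 0.885), and 1 was higher.

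Of 41 measured transcription factors listed for ameloblasts, 12 were higher (5 at an FDR of 0.01), 14 lower and 15 not called. The shares, 29.3% higher and 34.1% lower, lie near those of all genes, 24.1% and 33.7%. The 3 lowest, Sall1 (from 17.8 to 0.0617), Sall3 (from 24.6 to 0.0766) and Ascl5 (from 19.4 to 0.0595), were at the floor in maturation. Satb1, a chromatin organiser, fell from 114 to 26.4, Sp6 (epiprofin), needed for the ameloblast fate, from 253 to 58.4, and Dlx5 from 30.3 to 3.64. Klf5 rose from 5.49 to 49.3 (8.98-fold higher at an FDR of 0.00822 in the authors' deposited table), Irx3 from 6.42 to 30.01, Foxo1 from 18.5 to 71.3 and Runx2 from 107 to 201. Dlx3, mutated in an enamel and hair disorder, had means of 103 and 108 and was not called, as was Msx2 at 79.4 and 68.2. Paralogs again differed: of the Dlx genes, Dlx5 and Dlx4 fell, Dlx2 rose, and Dlx1 and Dlx3 were not called.

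Genes of the maturation stage were higher for 14 of 17 with none lower and a median log2 ratio of 3.22. The list was partly drawn up from what is known of these cells, and with earlier results of these data known. Its count is therefore no independent result. Amtn, amelotin, which lies with Odam in the layer between cell and enamel, went from 43.4 to 1514, 34.9-fold higher (FDR = 0.000872, authors' deposited table). Wdr72, needed for endocytic vesicle traffic in these cells, went from 7.32 to 71.5, and Alpl, the tissue-nonspecific phosphatase, from 153 to 491. The 3 not called were the anion exchanger Slc26a4 (1.45 and 2.62), the receptor Relt (5.97 and 5.4) and cathepsin K, Ctsk (520.1 and 457).

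Of 4 measured matrix proteins, 2 were higher and 2 not called. Amelx, amelogenin, the main matrix protein, had means of 1152 in the cervical loop and 217 in maturation and Enam, enamelin, of 419.5 and 79.99, yet their FDR in the authors' deposited table was 0.177 and 0.291. Ambn, ameloblastin, was 4.02-fold higher in maturation at 1306 and 5251 (FDR = 0.0121, authors' deposited table), and Tuft1, tuftelin, went from 10.1 to 53.5. Mmp20, the secretory-stage protease, was not called at 41.9 and 73.7. Of all 17 measured genes of the list, 8 were higher and 1, Sp6, lower, and 5 of the 8 were adhesion genes that are taken up with the junctions below.

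Acid and base transport was higher in maturation for 24 of 52 measured genes and lower for 7, with a median log2 ratio of 0.43. Mineral deposition releases protons, and these proteins move and buffer acid and base. Slc4a4, the sodium bicarbonate cotransporter, stood at 14.5 in cervical loop cells and 162 in maturation ameloblasts, 11.2-fold higher (FDR = 0.000179, authors' deposited table). The chloride channel Cftr, the cystic fibrosis protein, went from 5.11 to 116 (22.6-fold higher, with an FDR of 0.00047 in the authors' deposited table). The anion exchangers Slc26a1 (from 7.21 to 55.5), Slc26a7 (from 12.2 to 51.8) and Slc4a2 (from 55.6 to 136) were higher. Of carbonic anhydrases, which make bicarbonate, 5 of 9 were higher, with cytosolic Car2 at 56.8 and 252 and membrane-bound Car12 at 12.2 and 34.4. The sodium proton exchanger Slc9a7 was 9.05-fold higher. The 7 genes on the other side were Clic6 (from 16.8 to 2.11), Clcn4, Clcn5, Slc4a3, Slc4a5, Car11 and the sodium, potassium and chloride cotransporter Slc12a2 (from 90.8 to 60.3).

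Subunits of the vacuolar ATPase, which acidifies endosomes and lysosomes, were higher for 15 of 22 and lower for 3, with a median of 1.16. In the head of the pump Atp6v1a went from 78 to 547 (7.01-fold higher at an FDR of 0.000164 in the authors' deposited table) and Atp6v1b2 from 59 to 331. In the membrane ring Atp6v0a1 went from 36.7 to 210.2 and Atp6v0c from 84.9 to 276. The 3 that were lower, Atp6v1b1 (from 0.783 to 0.144), Atp6v0a4 (from 5.62 to 3.17) and Atp6v1g2, are isoforms of restricted tissues, the first 2 known from acid-secreting kidney cells. Tcirg1, the ring isoform of osteoclasts, was not called at 28.7 and 31.6. With a stage mean of at least 1 required, 1 of the 3 lower calls was left.

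Calcium genes were higher for 17 of 39 and lower for 9, and the members divided by role. All 6 genes of store-operated calcium entry were higher: the sensors of the endoplasmic store Stim1 (from 25 to 232) and Stim2 (from 30.8 to 259), the channels Orai2 (from 14.6 to 115), Orai1 (from 3.29 to 5.9) and Orai3 (from 6.53 to 9.74), and the brake Saraf. Orai2 had a ratio of 7.86 and Orai1 of 1.79. The pump that fills the store, Atp2a2, went from 144 to 915 (FDR = 9.56e-05, authors' deposited table), and the release channel Itpr3 from 76.1 to 375. Among 12 genes of extrusion across the plasma membrane, Slc24a4 was the only one called higher and 4 were lower. The pumps Atp2b1 (132 and 116) and Atp2b4 (105 and 142) and the exchanger Slc8a1 (7.79 and 7.17) were not called, and Slc8a3 fell from 24 to 4.41. Of the cation channels, Trpm7, permeable to magnesium and calcium, rose from 138 to 1464 and Trpm6 from 0.528 to 3.87, while the voltage-gated Cacna1d fell from 24.9 to 7.39. The calcium-binding proteins S100g (from 0.616 to 27.6) and Calb1 (from 160.4 to 622) were higher and Calb2 (from 5.75 to 0.396) lower.

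All 4 measured phosphate carriers were higher. Besides Slc34a2, the exporter Xpr1 went from 34.6 to 423, and the cell surface carriers Slc20a2 from 49.4 to 266 and Slc20a1 from 36.6 to 57.3. Enpp1, which makes pyrophosphate, an inhibitor of mineral growth, was 4.4-fold higher, and the pyrophosphate transporter Ankh was 1.73-fold lower. The sodium pump was higher for 4 of 6 subunits, with the beta subunits Atp1b3 at 63.7 in cervical loop cells and 389 in maturation ameloblasts, 6.1-fold higher (FDR = 7.56e-05, authors' deposited table), and Atp1b1 6.01-fold higher. Of 7 potassium channels, Kcnn4 and 2 others were higher and 3 lower, among them Kcnma1 (from 11.4 to 1.39). Subunits of the epithelial sodium channel, Scnn1b (from 12.5 to 1.17) and Scnn1g (from 7.2 to 0.434), were lower.

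Iron genes were higher for 13 of 25 and lower for 4, with a median log2 ratio of 1.26. Tfrc, the transferrin receptor, stood at 94.2 in cervical loop cells and 3249 in maturation ameloblasts, 34.5-fold higher (FDR = 0.000113, authors' deposited table). Both ferritin chains, which store iron, were higher: Fth1 went from 243 to 2955 (12.2-fold higher) and Ftl1 from 53.6 to 675 (12.6-fold higher). Steap3, which reduces iron in the endosome, was 11.1-fold higher, Slc11a2, which carries it out of the endosome, 5.05-fold higher, and Ncoa4, the receptor that delivers ferritin to lysosomes, 2.69-fold higher. The exporter ferroportin, Slc40a1, had means of 0.376 and 2.75 and was not called (FDR = 0.164, authors' deposited table). Heph, the oxidase that works with the exporter, fell from 60.5 to 31.5. Hfe, a regulator of iron sensing, fell from 6.21 to 1.95, Tfr2, the other transferrin receptor, from 0.387 to 0.112 and Pcbp2, an iron chaperone that also binds RNA, from 43.7 to 34.8. The regulators that bind iron-responsive messages, Aco1 (52.6 and 51.2) and Ireb2 (40.1 and 36.6), were not called. Ferritin genes have processed copies in rodents, so their assigned reads are uncertain.

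Lysosomal genes were higher for 41 of 63, lower for 2 and not called for 20, with a median of 0.60. The shares by role were uneven. Of 14 membrane proteins 13 were higher and of 13 proteases 10, but only 11 of 26 glycosidases and other hydrolases. Lgmn, legumain, went from 46.6 to 182 and Ctsf, cathepsin F, from 14.5 to 65.4. Ctsb, cathepsin B, stood at 263 and 595 and the membrane protein Lamp1 at 104 and 249.9, 2.4-fold higher (FDR = 5.47e-05, authors' deposited table). Tfeb and Tfe3, transcription factors that drive lysosomal genes, were 1.9-fold higher and 1.67-fold higher. The 2 that were lower were the phosphatase Acp2 (from 20.9 to 14.4) and the sorting adaptor Gga3 (from 13.7 to 11.9). Myeloid cells are rich in lysosomes, and 11 of 18 myeloid markers were higher as given above, with the macrophage receptor Mrc1 at 26.8 and 25.3 and Csf1r at 60.5 and 76 not called. Their part in the lysosomal counts was not tested.

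Tfeb and its relatives bind the sequence CACGTG, also within the longer form TCACGTGA. CACGTG was found in 10 of 50 matched lysosomal promoters (20%) and in 7.69% of all, and TCACGTGA in 4 of 50 (8%) and 1.34% of all. Every TCACGTGA holds a CACGTG, so both counts overlap. The longer form also occurred in 10.7% of replication promoters, whose genes were lower. The stretches below, with TCACGTGA in capitals, are those of Lamp1, which holds it 2 times (chr16:83075064-83075169 on the minus strand), and of Ctsd, the gene of cathepsin D (chr1:206968822-206968872 on the minus strand), both in GRCr8. Ctsd was 1.54-fold higher in maturation.
Lamp1: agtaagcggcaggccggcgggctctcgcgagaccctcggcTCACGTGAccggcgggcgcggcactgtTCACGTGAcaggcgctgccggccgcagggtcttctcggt
Ctsd: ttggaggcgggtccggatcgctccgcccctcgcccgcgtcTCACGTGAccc

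The clathrin machinery, which carries surface proteins into the cell, was higher for 31 of 69 genes and lower for 9, or 4 at an FDR of 0.01. All 3 chains of the coat were higher: Clta (from 39.3 to 109.7), Cltb (from 5.77 to 13.8) and Cltc (from 299 to 442). Of the AP2 adaptor, Ap2a2 rose from 66.6 to 244 and Ap2m1 from 97.8 to 179, while Ap2a1 (25.7 and 24.4) and Ap2b1 (69.7 and 67.6) were not called. The adaptor Snap91, known from synapses, went from 23.4 to 122, and its widely expressed relative Picalm stood at 82.2 and 92.4 and was not called. Synj1, the phosphatase that helps vesicles uncoat, rose from 21.2 to 104 (FDR = 0.000172, authors' deposited table). Some paralogs were called in opposite directions: Itsn2 was 3.9-fold higher and Itsn1 1.32-fold lower (FDR = 0.0228 for Itsn1, authors' deposited table), Hip1r 4.46-fold higher and Hip1 1.33-fold lower, and of the dynamins, which pinch vesicles off, Dnm2 was 1.48-fold higher, Dnm1 2.56-fold lower and Dnm3 not called. None of 8 caveolae genes was called, with Cav1 at 42.3 and 36.6.

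Receptors that bring in cargo were higher for 13 of 39 (33.3%, against 24.1% of all genes) and lower for 7 (17.9%, against 33.7%). Of the LDL receptor family Lrp10 (from 33.3 to 69.9) and Lrp12 (from 24.6 to 49) were higher and Lrp4 (from 80.3 to 35.7) and Lrp8 (from 19.2 to 6.29) lower, and Lrp1 was not called at 756 and 807. Cubn, cubilin, fell from 2.05 to 0.839 and megalin, Lrp2, rose from 1.22 to 2.19. Endosome traffic genes were higher for 36 of 71 and lower for 10. All called ESCRT and late tether genes, 12 of 18 measured, were higher, whereas early endosome genes were split with 5 higher and 4 lower of 12. Ehd3, which shapes recycling endosomes, rose from 12.2 to 115 while its paralog Ehd1 fell from 29.4 to 20.8. The late endosome GTPase Rab7a went from 78.4 to 126 and Rab27a, of regulated secretion, from 52.2 to 31.8.

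Genes of mitochondrial respiration were higher for 39 of 56, lower for 1 and not called for 16. The differences were small, with a median log2 ratio of 0.37 and a highest of 0.93. All 10 genes of complex IV were higher, for example Cox8a (from 47 to 89.8), but only 2 of 8 of complex III. The exception was Atp5mc2, an ATP synthase ring subunit, which fell from 48.6 to 35.3. In the tricarboxylic acid cycle 16 of 27 were higher and 6 lower. Slc13a5, which takes up citrate, stood at 11.5 in cervical loop cells and 248 in maturation ameloblasts, 21.6-fold higher (FDR = 0.00184, authors' deposited table), the mitochondrial citrate carrier Slc25a1 was 3.41-fold higher and pyruvate carboxylase, Pc, 4.1-fold higher. Idh3a, of the cycle, was 2.78-fold higher, while Idh1 and Idh2, which make NADPH, were 1.47-fold lower and 1.37-fold lower. Of the regulators of mitochondria, Ppargc1a (2.01-fold higher) and Esrra (2.05-fold higher) were higher and Nrf1 (1.48-fold lower) and Tfam (1.82-fold lower) lower. Glycolysis genes were higher for 12 of 16 with none lower, led by Pfkp (from 6.3 to 30.8) and Aldoa (from 118 to 353), and the glucose carrier Slc2a1 rose from 11.9 to 47.6 while Slc2a3 fell from 13.4 to 9.23.

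Of 59 measured cytosolic ribosomal proteins, 55 were lower and none higher, and the ratios were alike: median log2 was -1.14 in the small and -1.14 in the large subunit. Rplp0 went from 636 to 324 (FDR = 0.000475, authors' deposited table), Rps4x from 819 to 314 and Rpl3 from 593 to 258. Ribosomal protein genes have many processed copies, so the assigned reads are uncertain. Rps6 (1.64 and 1.63) and Rpl37 (0.491 and 0.401), which every cell uses, were low in both stages and not called. Of 29 SR proteins, hnRNPs and their kinases, which guide splicing, 23 were lower and 1 higher, with Hnrnpa1 at 151 and 58 and Srsf7 2.28-fold lower. Of 22 tissue-restricted splicing regulators, 8 were lower (36.4%) and 6 higher (27.3%), near the 33.7% and 24.1% of all genes. Mbnl1 rose from 45.8 to 113 and Rbm47 from 1.89 to 5.44, while Ptbp1 fell from 185 to 99 and Mbnl3 from 5.27 to 0.885. The epithelial regulator Esrp1 was not called at 44.1 and 47.7.

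Genes of the endoplasmic reticulum were higher for 23 of 67 (34.3%, against 24.1% of all genes) and lower for 26 (38.8%, against 33.7%). Their median log2 ratio was -0.07, which becomes 0.055 relative to the median of all genes. Stress sensors were higher for 6 of 12, among them Ern1 (from 18 to 38.4), and the chaperone partner Dnajb9 rose from 6.75 to 29.8 and the chaperone Hspa5 from 218 to 313. Genes of vesicle transport to the Golgi were lower for 11 of 23, such as the retrieval receptors Kdelr3 (from 65.6 to 21.8) and Kdelr2 (from 93.7 to 44.6), and the disulfide isomerase Pdia6 fell from 211 to 113.

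**Figure D4:**
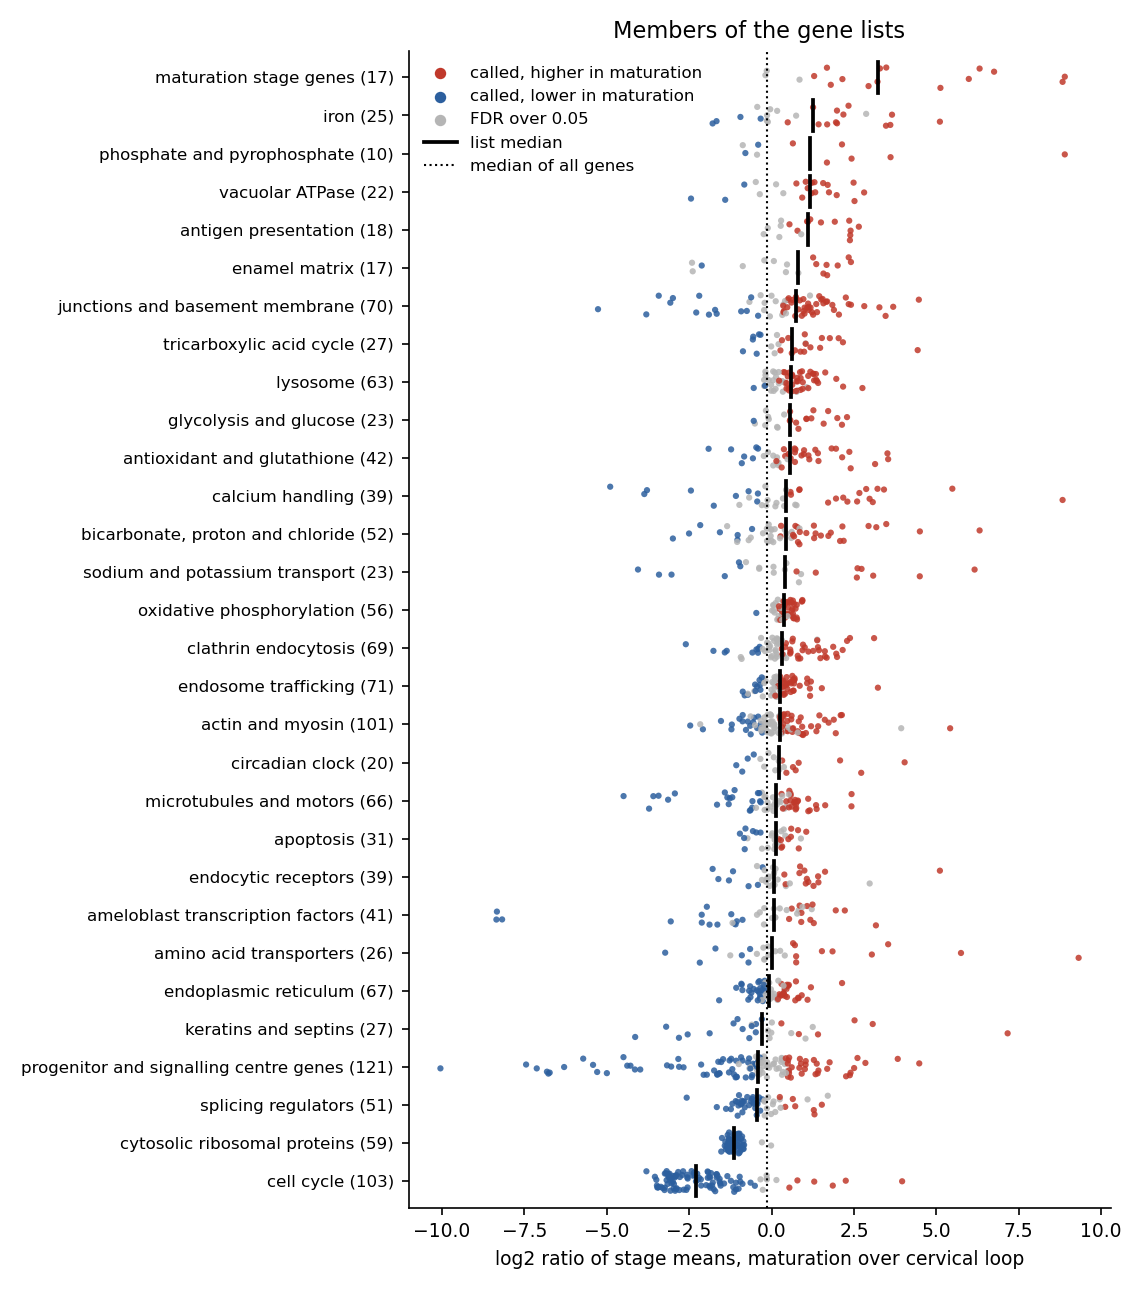
Log2 ratio of the authors' stage means, maturation over cervical loop, of each measured member (point) of 30 gene lists, with the number of members in brackets, red and blue for members called higher and lower at an FDR of at most 0.05 and grey for the rest. Bars are list medians and the dotted line is the median of all genes. Medians run from -2.29 for the cell cycle to 3.22 for maturation stage genes, and all 59 ribosomal proteins lie below 0.

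Actin genes were higher for 41 of 101 and lower for 18. Myosins that move vesicles, Myo6 (from 20.1 to 86.2) and Myo5c (from 12.6 to 46.6), were higher, as was ezrin, Ezr (from 64.2 to 176), which ties actin to the membrane, and the formin Diaph1 (from 27.5 to 70.6). Of the non-muscle myosin heavy chains Myh14 rose from 36.8 to 113 and Myh10 fell from 182 to 63. Filamin A, Flna, fell from 830.4 to 453, vinculin, Vcl, from 138 to 83.7 and beta actin, Actb, from 1669.8 to 1157 (1.44-fold lower), while talin 1, Tln1, was not called at 199.6 and 197. Of the 11 smooth muscle and pericyte markers, Acta2 (80.4 and 21.9), Myh11, Cnn1 and Tagln were lower, 5 others, Rgs5, Notch3, Kcnj8, Abcc9 and Mcam, were higher (2 at an FDR of 0.01), and 2 were not called. The part of these cells in the fall of Myl9 (from 84.4 to 36.3) and Cald1 (from 170.3 to 99.5) was not tested.

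Microtubule genes were higher for 25 of 66 (37.9%, against 24.1% of all genes) and lower for 21 (31.8%, against 33.7%). Tubulins were mostly lower. Of 13 tubulins 8 were lower and 2 higher, with Tubb5 at 612 and 229, Tuba1b at 314 and 99.8 and Tubb3, known from neurons, at 38.3 and 3.19. Stmn1, which takes microtubules apart, fell from 140.3 to 13 (10.8-fold lower at an FDR of 8.06e-05 in the authors' deposited table), and Map2, better known from dendrites, from 51.3 to 2.29. Of 17 kinesins 9 were higher and 5 lower, led by the cargo motor Kif13b (from 22.8 to 51), and Map7, which recruits kinesin to microtubules, rose from 4.02 to 21.6. Only 5 of 13 dynein and dynactin genes were called, 4 of them higher.

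Keratins were split. The basal keratins Krt14 (from 295 to 1691) and Krt5 (from 422 to 1122) were higher, the hair keratin Krt75 (from 5.94 to 0.648) was lower, and Krt17 was not called at 298 and 297. Krt8 and Krt18, which pair in simple epithelia, lay on opposite sides: Krt8 was 1.78-fold higher and Krt18 17.6-fold lower. Krt16, a keratin of stressed skin, was at the floor in the cervical loop and reached 5.17 in maturation. In all 5 of 16 keratins and vimentin were higher (31.25%, against 24.1% of all genes) and 6 lower (37.5%, against 33.7%). Of 11 septins, the GTP-binding filaments used in cell division and polarity, 7 were lower and only Sept9 higher. Krt14 also marks the stratum intermedium and papillary layer, whose 10 markers summed to the values given above, and the part of those cells was not tested.

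Genes of cell junctions and the basement membrane were higher for 44 of 70 and lower for 14, with a median of 0.74. Of tight junction genes Cldn1 stood at 26.8 in cervical loop cells and 593 in maturation ameloblasts, 22.1-fold higher (FDR = 0.000155, authors' deposited table), Cldn4 went from 3.56 to 46, F11r from 13.7 to 132 and the scaffold Tjp1 from 102 to 322. The 6 lower tight junction genes were all claudins, from Cldn6 (from 2.25 to 0.687) to Cldn3 (from 0.654 to 0.047, at the floor in maturation). Nectin3, an adhesion protein, was 11-fold higher, and Cdh2 rose from 43 to 155, whereas E-cadherin, Cdh1, was not called at 171 and 107. Of 16 hemidesmosome and basement membrane genes 13 were higher, including the laminin chain Lamb3 (from 94.9 to 283), the laminin receptor subunit Itgb4 (from 94.9 to 306) and Col17a1 (from 99.9 to 239.5), all of which cause enamel defects when mutated in humans. Lama1, a laminin of early embryos, fell from 40.6 to 12.8. The gap junction protein Gja1, connexin 43, rose from 835 to 2174.

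Antioxidant genes were higher for 26 of 42 and lower for 7. The cystine carrier Slc7a11 rose from 6.4 to 74.4, the glutathione enzyme Ggt1 from 7.41 to 84.7 and Nqo1, a quinone reductase, from 2.16 to 19.1, and Nfe2l2, the factor that activates such genes, from 35.1 to 93.1. The lower members included 3 that work in the endoplasmic reticulum, Prdx4 (from 38 to 16.2), Gpx7 (from 25.4 to 13.6) and Gpx8 (from 47.9 to 26.9). Antigen presentation genes were higher for 12 of 18 with none lower, and class II genes for 8 of 8, with Cd74 at 42.3 and 217 and RT1-Da at 19.3 and 100.3. Class II molecules are made by myeloid cells, whose marker list was higher for 11 of 18 and includes Cd74, and their part in this count was not tested. RT1 genes are near-identical copies of one another and their reads are uncertain.

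Transcript make-up, the share of each annotated transcript in the sum of its gene's transcript means, changed in few genes. In the authors' deposited table, 113 of 4050 genes with more than 1 transcript were called, or 2.79%. Their largest share change had a median of 12.8 percentage points, against 3.84 over all genes in the table. In 20 of the 113 the leading transcript differed between the stages and a share moved by at least 20 points. Transcripts of 1 gene were called in opposite directions in 24 of them. At the level of the whole gene 50 of the 113 were higher, 32 lower and 31 not called. Short reads assign transcripts by model, so shares are estimates.

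Tln2, talin 2, which links integrins to actin, had the smallest p-value for transcript make-up. Its transcript Tln2-201 held 3.22% of the gene's transcript means in the cervical loop and 55.3% in maturation, going from 1.95 to 43.9 (make-up FDR = 1.45e-12, authors' deposited table). Tln2-202 and Tln2-205 are listed with identical values, 45.6% and 21.7% each, and cannot be told apart here. The gene as a whole was 1.28-fold higher, a far smaller difference than that of Tln2-201.

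Krt17 changed its make-up while its total was not called. Krt17-201 held 76.5% in the cervical loop and 28.2% in maturation, and Krt17-202 held 23.5% and 71.8% (make-up FDR = 6.26e-05, authors' deposited table). In means, Krt17-201 went from 225 to 84.4 and Krt17-202 from 69.3 to 215. The same pattern held for Dnm3, the dynamin named above: Dnm3-202 fell from 55.2% to 19.4% (make-up FDR = 0.0203, authors' deposited table) with a total of 3.92 and 4.45.

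Other genes traded their leading transcript. Slc25a16, a mitochondrial carrier, went from 65% to 27.1% of Slc25a16-201 (make-up FDR = 5.64e-05, authors' deposited table). Ripor1, a partner of small GTPases, went from 49.3% to 79.5% of Ripor1-201, and Ttc13 from 74.6% to 38.7% of Ttc13-201. Pnkd, whose total was 3.96-fold higher, gained Pnkd-201 from 23.7% to 53.4%. In Eya1, a transcription cofactor of early organs, Eya1-201 fell from 74% to 10.6%, at total means of 1.92 and 0.439. With 1 added to each transcript mean, the Eya1 change shrank from 63.4 to 19.3 percentage points. Hydin, Mpp4, Adgrv1 and Tnni1 also changed leading transcript, but at total means of 1.78, 4.91, 0.642 and 0.214 in the cervical loop, and Adgrv1 at 0.541 in maturation, so their shares, like those of Eya1 and of Dnm3 (total means of 3.92 and 4.45), rest on low values. RF00009 and RF00003, which are among the 20, are families of similar small RNA loci and not single genes.

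**Figure D5:**
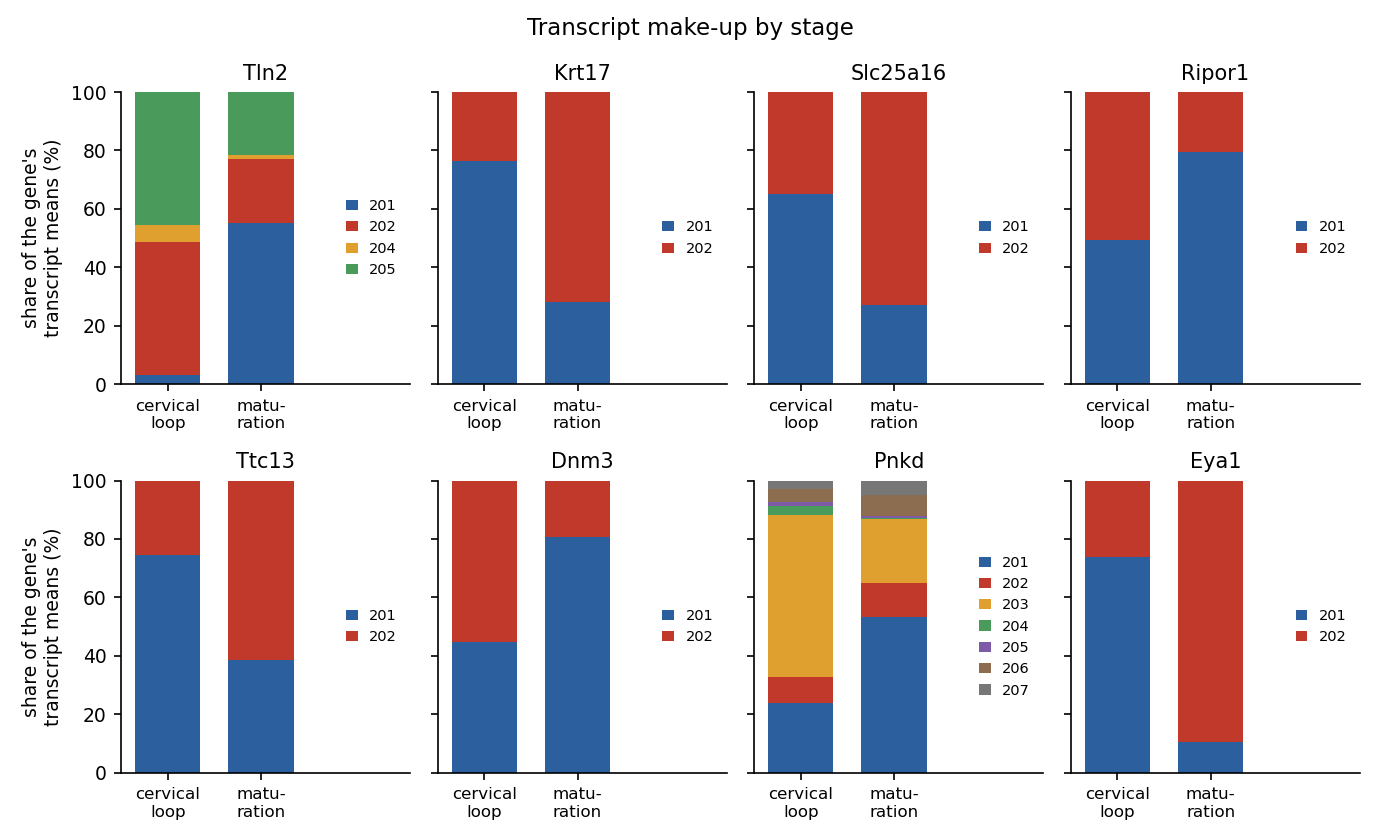
Share of each gene's transcript means (percent, stacked bars from 0 to 100) held by each annotated transcript, numbered as in the deposited table, in cervical loop cells and maturation ameloblasts for 8 genes called for a change of make-up. Tln2-201 goes from 3.22% to 55.3% and Krt17-201 from 76.5% to 28.2%.

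Genes of the cytoskeleton were among those called. Of the 45 actin genes with such data, 4 were called (8.89%), among them Tln2, Myo5b and Tpm3, and of 35 microtubule genes 3 (8.57%), Dclk1, Macf1 and Map2, against 2.79% of all genes. Among 29 cell cycle, 14 lysosome, 20 endosome and 19 endoplasmic reticulum genes none was called, and lists of this size hold too few genes to tell 0 from the background. In Macf1, which links actin to microtubules, Macf1-202 went from 29.8% to 39.6%. Plec, plectin, of the junction list, gained Plec-206 from 13.3% to 20.02%. Stim1 was called (make-up FDR = 0.0136, authors' deposited table), but its transcripts Stim1-203 and Stim1-205 have cervical loop means below 0 in the deposited table, taken as 0 here, so its shares are not given. The expression of splicing regulators described above lies beside these changes, and any part of it in them was not tested.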

How the data were processed

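RNA from dissected rat enamel organs (rats: 5; RNA integrity number at least 7) was sequenced in single 75-base reads, with 25000000 reads per library, per the labels' protocols. The submitters' processing notes name STAR 2.5.3a, Partek and rn6; for their roles, the annotation, filters, normalisation and counts of reads per gene, the sources used here give nothing. The authors deposited 1 least-squares mean per gene or transcript and stage, a score whose unit is not stated, with the ratio of means, a p-value and a step-up FDR per comparison, per the file headers. Means, p-values and the FDR of transcripts and transcript make-up were used as deposited. The FDR of genes was computed again from the deposited p-values by the step-up method over all genes. No test was added because libraries are not given singly. Apart from the excluded cervical loop sample, the sources used here do not give the scale of the authors' model or which libraries entered it. Precision is therefore known only through the authors' p-value.

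Log2 ratios, transcript shares (means below 0 set to 0), counts per list and promoter motif searches were computed with Python 3.11.15, pandas 2.3.3 and numpy 2.4.6. Only the adjustment of p-values and the calls were tested on simulated p-values, and transcript shares on a small made-up example. Genes named were the markers, the 12 highest and 12 lowest ratios among called genes above the floor in both stages with a larger mean of at least 10, the 6 called genes with the largest mean at the floor in 1 stage, the largest means, the 5 smallest p-values, members of 40 lists, and called transcript genes; some of these are not reported here. Members, lists and motifs were chosen with earlier results of these data known. Alternatives were an FDR of 0.01, a ratio of at least 2, a stage mean of at least 1, a pseudocount of 1, subtraction of the median of all genes, and other share thresholds. The 4 columns of stage means from comparisons with the secretory stage were not used here.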

Additional observations from a re-analysis of the deposited data

How the results depend on the processing

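No paired analysis was possible because the deposited columns hold 1 mean per stage and no single libraries; leaving out a library was not possible for the same reason. Asking for a ratio of at least 2 as well left 4311 called genes, 1753 higher and 2558 lower, and an FDR of 0.01 left 42 genes called for transcript make-up. At an FDR of 0.01 the following counts differed from the main ones by over 1.5 times. The lower members numbered 1 in lysosome, 4 in clathrin endocytosis, 2 in the circadian clock, 15 in endoplasmic reticulum, 0 in glycolysis and glucose, 11 in actin and myosin, 3 in amino acid transporters, 3 in odontoblast and bone markers and 0 in skeletal muscle markers. The higher members numbered 5 in ameloblast transcription factors, 13 in endoplasmic reticulum, 7 in endothelium, 5 in myeloid, 1 in lymphoid, 0 in erythroid, 1 in skeletal muscle and 2 in smooth muscle and pericyte markers. With a stage mean of at least 1, lower members numbered 1 in vacuolar ATPase, 9 in junctions and basement membrane and 0 in skeletal muscle, and higher lymphoid markers 0. A lower FDR or a minimum ratio calls fewer genes by construction, and a minimum mean tests fewer. The median log2 ratio of endoplasmic reticulum genes became 0.055 after the median of all genes was subtracted, the 1 median of 40 to reverse. The other 63 counts at an FDR of 0.01 and 76 with a stage mean of at least 1 stayed within 1.5 times. A pseudocount of 1 changed the ratio of means of 27 of 60 named genes by over 1.5 times, and 5 of 12 named transcript shares by 10 points or more. None changed sign, and low means limit those ratios.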

Other observations

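Of 20 measured clock genes, 8 were higher and 4 lower in maturation. Hlf, an output factor, went from 0.471 to 7.74, 16.4-fold higher (FDR = 0.00031, authors' deposited table), and the repressors Bhlhe41 (from 1.5 to 9.91) and Bhlhe40 (from 18.3 to 77.2) were higher, whereas Dbp (9.25 and 7.31) and Tef (21.2 and 19.9), relatives of Hlf, were not called. The core repressors Per1, Per2 and Cry1 were not called, and Per3, Cry2 and Ciart were lower. The hour of dissection is not given in the sources used here, and its part was not tested.

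Amino acid carriers were higher for 10 of 26 (38.5%, against 24.1% of all genes) and lower for 6 (23.1%, against 33.7%). The glutamate carrier Slc1a1 rose from 1.64 to 87.9 and the glycine carrier Slc6a9 from 1.65 to 13.6, while the arginine and lysine carriers Slc7a1 (from 14.6 to 4.5) and Slc7a3 (from 0.649 to 0.0694) fell. Apoptosis genes were higher for 10 of 31 (32.3%) and lower for 7 (22.6%), with log2 ratios between -0.96 and 1.05. Bcl2l1, which restrains apoptosis, was 2.08-fold higher, and its relative Bcl2 1.48-fold lower.

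Of the 5 genes with the smallest p-values, 3 had ratios below 2 in either direction. Snx9, a sorting nexin of clathrin pits, was 1.56-fold higher (13.7 and 21.5, p = 3.49e-09 in the authors' deposited table), the autophagy gene Becn1 1.68-fold higher and Nufip1, a ribonucleoprotein assembly factor, 1.86-fold lower. Fam13a was 18.7-fold higher (18.2 and 339.5), and Cartpt, a neuropeptide precursor, had means of 5.79 and 0.0303.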
